A study of Mus musculus with 12 samples.

Results

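The genes described here are 38 antiviral interferon-stimulated genes, measured by RNA sequencing in 12 MC38 tumours' libraries. MC38 is a mouse colon carcinoma line, grown here under the skin of the flank of C57BL/6J mice 8 weeks old. Members were the rows of the count table of all libraries whose gene symbol was on a list of names, and all 38 were found among 43698 rows. All 38 passed the filter on low counts and entered the fit of 19525 genes. The study has 6 groups of 2 libraries each. Control mice (Ctrl) received phosphate-buffered saline, and doxorubicin (DOX), its prodrug (DPD) or the Ru-PD-L1 conjugate (RP) was given alone into the abdominal cavity every 3 days from day 9. The dose was 14 µg (0.56 mg/kg) for DOX and DPD and 20 µg (0.8 mg/kg) for the conjugate. In the combination groups the conjugate, at a dose the labels do not state, was followed 6 hours later by 14 µg DOX (R+X) or 14 µg DPD (R+D) injected beside the tumour. All tumours were taken on day 20. The injection site of the drug therefore differed between single and combined treatment, and the 2 cannot be told apart. The labels abbreviate the groups, and R+X was read as conjugate plus DOX. The title of each library carries its own code, whose meaning is not given. Whether the pair of libraries in a group came from different animals is not stated. The p-values here therefore measure the spread between libraries only, which need not be that between animals.

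Type I interferons bind a receptor of IFNAR1 and IFNAR2, and the kinases JAK1 and TYK2 then activate STAT2, which acts with IRF9 in the complex ISGF3. ISGF3 binds the interferon-stimulated response element (ISRE) in the promoters of antiviral genes, while interferon gamma acts mainly through another promoter element, the gamma-activated site (GAS). In tumours, interferon-stimulated genes are known to respond to nucleic acids released in dying cells and to interferon from immune cells. The members cover sensing of double-stranded RNA (OAS enzymes, IFIH1, DHX58, EIF2AK2), binding of viral RNA (IFIT proteins), block of viral entry, replication or release (MX proteins, RSAD2, BST2), the ubiquitin-like protein ISG15 with its enzymes, and the factors IRF7, IRF9 and STAT2.

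Promoter sequence was read for the members from RefSeq windows of build GRCm38.p6, from 250 bases before to 50 bases after each gene start, and 27 of the 38 members had an entry. The ISRE was searched as GAAANNGAAA and the GAS as TTCNNNGAA, each on both strands and with overlapping matches counted. An ISRE match stood in 13 of 27 members (48.1%), against 1079 of 27025 genes with a window (3.99%). A GAS match stood in 5 of 27 members (18.5%), against 2582 of the 27025 genes (9.55%). The promoters below are shown because the values described further on turn on these genes or, for Isg15, because its matches overlap. Oas3 was highest in RP, and both libraries of DPD, RP, R+X and R+D lay above both Ctrl libraries. Ifit1, Ifit3, Ifit3b and Rsad2 had their low values in RP or in 1 library of R+D. Isg15 encodes the ubiquitin-like modifier. Each run is the 200 bases before the gene start, 5′ to 3′ on the strand of the gene, with the bases of ISRE matches in capitals (TTTCNNTTTC is the same element on the other strand).
Oas3: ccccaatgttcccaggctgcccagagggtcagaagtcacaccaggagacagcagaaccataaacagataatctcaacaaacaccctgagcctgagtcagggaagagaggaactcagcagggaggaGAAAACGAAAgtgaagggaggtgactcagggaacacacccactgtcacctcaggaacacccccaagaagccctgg
Ifit1: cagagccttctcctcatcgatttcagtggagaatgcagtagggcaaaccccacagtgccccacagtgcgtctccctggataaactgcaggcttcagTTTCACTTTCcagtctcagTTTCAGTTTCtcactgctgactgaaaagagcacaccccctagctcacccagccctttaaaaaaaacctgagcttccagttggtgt
Ifit3: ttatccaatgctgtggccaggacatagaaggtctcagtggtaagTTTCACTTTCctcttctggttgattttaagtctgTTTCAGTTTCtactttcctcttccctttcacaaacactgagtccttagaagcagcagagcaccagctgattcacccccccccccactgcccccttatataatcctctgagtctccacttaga
Ifit3b: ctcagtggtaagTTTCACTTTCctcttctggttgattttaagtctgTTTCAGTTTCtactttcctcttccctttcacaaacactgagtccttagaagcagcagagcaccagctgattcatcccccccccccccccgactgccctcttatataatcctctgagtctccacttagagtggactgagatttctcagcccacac
Rsad2: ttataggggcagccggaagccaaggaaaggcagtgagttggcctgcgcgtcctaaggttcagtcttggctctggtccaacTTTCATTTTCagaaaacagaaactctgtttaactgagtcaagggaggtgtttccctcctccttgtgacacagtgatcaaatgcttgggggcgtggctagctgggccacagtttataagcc
Isg15: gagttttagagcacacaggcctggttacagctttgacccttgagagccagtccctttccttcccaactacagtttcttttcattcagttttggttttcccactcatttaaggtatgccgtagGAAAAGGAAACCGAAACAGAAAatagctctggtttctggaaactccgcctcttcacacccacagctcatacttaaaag
The windows lie at chr19:34640689-34640888 (plus strand) for Ifit1, chr19:34583329-34583528 (plus) for Ifit3, chr19:34607757-34607956 (plus) for Ifit3b, chr4:156200819-156201018 (minus) for Isg15, chr5:120777660-120777859 (minus) for Oas3 and chr12:26456453-26456652 (minus) for Rsad2. The 3 IFIT genes each hold a pair of matches, and in Isg15 the 3 matches overlap in 1 run. With no gaps allowed, the promoters of Ifit3 and its neighbour Ifit3b were the same at 75.0% of 268 bases when shifted by 32 bases. This understates their likeness. Their runs of c differ in length, so the bases after them fall out of register, though a stretch there is the same in both printed runs. A match describes the letters of the window and not binding.

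Several members are neighbours. In GENCODE M21 on GRCm38, 4 IFIT genes lie within chr19:34550694-34650009, 5 OAS genes within chr5:120730333-120907521, Parp14, Dtx3l and Parp9 within chr16:35832874-35972605, Mx1 and Mx2 within chr16:97447035-97560900, and Rsad2 and Cmpk2 within chr12:26442746-26479837. Near-identical copies (the OAS1 genes, Ifit3 and Ifit3b) could exchange reads, and how the authors' counting split them is not given in the sources used here. Exons overlap on opposite strands for Dtx3l and Parp9 (458 bases), Eif2ak2 and Gm26637 (174), Irf7 and Phrf1 (45) and Oasl1 and Gm13822 (38). Counts of these genes are uncertain where strand was not used. Irf9 and Rnf31 share 123 bases on the same strand, so their counts are uncertain with or without the use of strand.

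Library totals ranged from 46547114 to 56462259 counts, and members together took from 0.0997% (Ctrl 2) to 0.170% of them. Levels are given as CPM, the counts scaled to a common library total with TMM factors, and the spread over a group is that of 2 libraries, numbered by their order in the listing. Markers of other cells moved with the groups. T and NK cell markers summed to 54.8 and 42.8 CPM in Ctrl, 40.1 and 34.6 in DOX, 59.2 and 67.5 in DPD, 103 and 129 in RP, 56.6 and 37.6 in R+X, and 69.4 and 126 in R+D. Skeletal muscle markers stood at 41.3 and 38.2 CPM in Ctrl and 25.7 and 29.5 in DPD, but at 320 and 121 in RP and at 41.0 and 418 in R+D. Red blood cell markers were 223.2 and 260.3 CPM in Ctrl, 368 and 347 in DOX, and 124 and 25.3 in DPD. Of the epithelial markers, Krt8 was at 0 counts in 8 of 12 libraries and Krt18 in 6, while Cdh1 had 472 to 946 counts. In bulk tumour RNA, a change in the share of a cell type and a change of RNA per cell cannot be told apart. Transcript length also moved with the libraries: in DOX, the log2 difference of library 2 from library 1 had Spearman's rho of 0.40 with exon length over 16222 genes and 0.63 over the 38 members, as a description with no test.

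Per kilobase of exon, Bst2, which tethers budding virus to the cell surface, had the highest level (186 CPM per kb over the 12 libraries). Ifi27 followed at 56.3 CPM per kb, Lgals3bp, a secreted glycoprotein, at 31.7, and Isg15 at 27.3. The lowest were Oasl1 at 1.41 and Mx2 at 0.911 CPM per kb. In C57BL/6 mice the Mx1 gene, whose product blocks influenza virus, is known to be disrupted by a deletion. GENCODE M21 types Mx2 and Oas1b as polymorphic pseudogenes, so their RNA need not stand for a working protein.

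**Figure D1:**
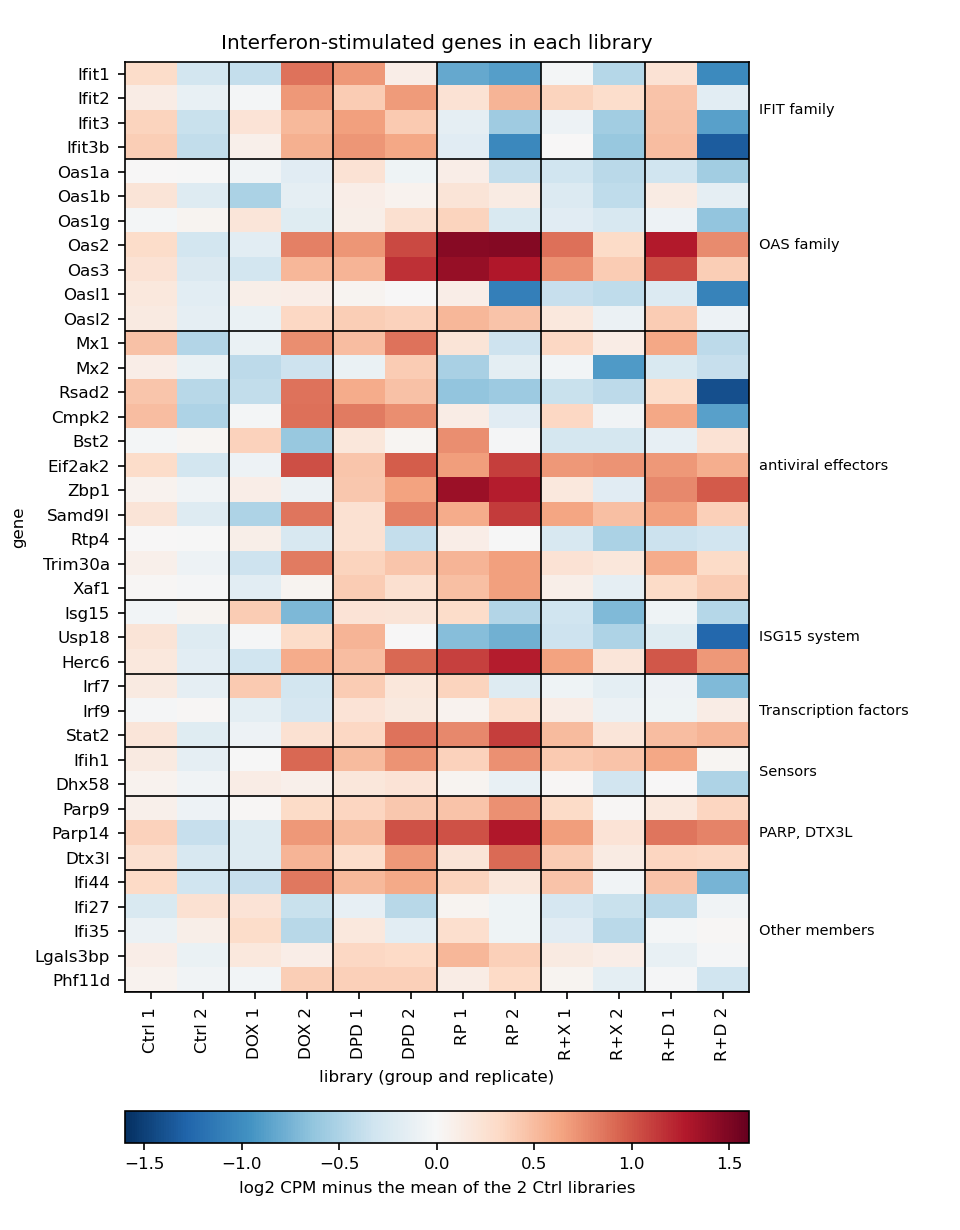
Heat map of the 38 members (rows, ordered by role) in the 12 libraries (columns, by group). Colour is log2 CPM minus the mean of the 2 Ctrl libraries. The DPD columns are above Ctrl for most rows (36 and 34 of 38 members), while Ifit1, Ifit3 and Ifit3b are below Ctrl in RP and in R+D 2.

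The main comparison was that of DPD given without the conjugate, in which most members lay above the control. In DPD against Ctrl, 36 of 38 members had a log2 fold change above 0, against 51.3% of all genes tested, and the median was 0.39 against 0.014 over all genes. In 29 members both DPD libraries lay above both Ctrl libraries (20.4% of all genes), and in 0 members did both lie below (17.6% of all genes). No single member passed the test: edgeR's quasi-likelihood test with Benjamini-Hochberg adjustment called 0 of 38 members and 0 of 19525 genes (0%), and limma-voom and DESeq2 also called 0 members. At an unadjusted p under 0.05, 7 members were higher (2.61% of all genes) and 0 lower (1.40%). The edgeR adjusted p-values of the members lay between 0.725 and 0.994. Each DPD library on its own had most members above the Ctrl mean, 36 in DPD 1 and 34 in DPD 2. The size depended on the controls: the median was 0.24 without Ctrl 2 and 0.52 without Ctrl 1, with 34 and 35 members above 0.

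The 2′-5′ oligoadenylate synthetases make a second messenger that activates RNase L when they meet double-stranded RNA. Oas3, which prefers long double-stranded RNA, had 23.8 and 17.3 CPM in Ctrl and 29.7 and 45.8 in DPD. The groups did not overlap, and the log2 fold change was 0.88 ± 0.32 (SE; unadjusted p = 0.0216, edgeR adjusted p = 0.725). Oas2 had 15.7 and 10.5 CPM in Ctrl and 21.0 and 26.6 in DPD, a log2 fold change of 0.86 ± 0.34 (SE; edgeR adjusted p = 0.725). Both DPD libraries were again above both controls. Oasl2, another member of the OAS family, had 55.4 and 45.2 CPM in Ctrl and 65.5 and 64.5 in DPD, also without overlap. For Oas1a the groups overlapped, with 27.5 and 27.2 CPM in Ctrl and 32.1 and 26.1 in DPD. All 7 OAS members had a log2 fold change above 0, with a median of 0.18, and the sign turned for Oas1a without DPD 1 (-0.067) and without Ctrl 2 for Oas1b (-0.12) and Oasl1 (-0.14).

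IFIT proteins bind viral RNA that lacks the host's cap marks. Ifit3 had 33.3 and 20.2 CPM in Ctrl and 40.8 and 34.6 in DPD, a log2 fold change of 0.50 ± 0.39 (SE). Ifit2 had 25.0 and 21.1 CPM in Ctrl and 30.3 and 36.9 in DPD, a log2 fold change of 0.54 ± 0.27 (SE). In both genes the DPD libraries were above the controls, by less than 2 standard errors for Ifit3. Ifit1 overlapped between groups, at 30.1 and 20.1 CPM in Ctrl and 40.0 and 26.6 in DPD. All 4 IFIT genes had a log2 fold change above 0 (median 0.52), and 0 of the 4 reached an unadjusted p under 0.05 with edgeR.

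Among the effectors, Zbp1, a sensor of Z-form nucleic acid that can start necroptosis, had the smallest p of all members. Its levels were 30.8 and 28.5 CPM in Ctrl and 39.8 and 46.2 in DPD, a log2 fold change of 0.54 ± 0.17 (SE; unadjusted p = 0.0106, edgeR adjusted p = 0.725). Both DPD libraries stood above both controls. Eif2ak2, the kinase PKR that halts translation on double-stranded RNA, had 38.8 and 26.0 CPM in Ctrl and 43.1 and 61.9 in DPD, a log2 fold change of 0.70 ± 0.34 (SE). Rsad2, the enzyme viperin, which makes a chain-terminating nucleotide, had 17.5 and 9.42 CPM in Ctrl and 19.5 and 17.8 in DPD, a log2 fold change of 0.47 ± 0.52 (SE). Neither gene overlapped between groups, but for Rsad2 the standard error exceeded the difference. Bst2 had 158 and 164 CPM in Ctrl and 183 and 165 in DPD, a log2 fold change of 0.11. Of the 11 members in this role, 10 had a log2 fold change above 0 and the median was 0.47.

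In the ISG15 system, Isg15 itself differed little: 21.3 and 22.6 CPM in Ctrl against 25.5 and 25.2 in DPD, a log2 fold change of 0.21 ± 0.35 (SE). Herc6, the main ligase that attaches ISG15 in mice, had 16.3 and 12.95 CPM in Ctrl and 20.5 and 27.5 in DPD, a log2 fold change of 0.71 ± 0.29 (SE; edgeR adjusted p = 0.725). Usp18, which removes ISG15 and dampens the interferon receptor, overlapped at 15.6 and 11.6 CPM in Ctrl and 19.7 and 13.5 in DPD. So by level the ligase was outside the spread of the controls, while the protease was not. Herc6 has 9292 bases of exon, Usp18 2790 and Isg15 756, and the differences in this comparison moved with length (described below). With the trend with length over all genes removed, the log2 fold changes lay closer, at 0.50 for Herc6, 0.40 for Usp18 and 0.47 for Isg15. Whether these genes differed from each other apart from length was not tested.

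Stat2, the subunit that gives ISGF3 its activation domain, had 59.6 and 45.2 CPM in Ctrl and 65.1 and 94.9 in DPD, a log2 fold change of 0.61 ± 0.23 (SE; unadjusted p = 0.0228, edgeR adjusted p = 0.725). Parp14, a mono-ADP-ribosyltransferase, had 53.8 and 32.2 CPM in Ctrl and 59.1 and 84.6 in DPD, a log2 fold change of 0.74 ± 0.33 (SE; edgeR adjusted p = 0.725). Neither gene overlapped. Irf9, the DNA-binding partner of STAT2, had 52.9 and 53.8 CPM in Ctrl and 62.3 and 59.2 in DPD, and Ifih1, the RNA sensor MDA5, had 19.6 and 15.9 CPM in Ctrl and 25.2 and 29.0 in DPD. Lgals3bp had 86.1 and 73.9 CPM in Ctrl and 101 and 99.6 in DPD, a log2 fold change of 0.32 ± 0.14 (SE; unadjusted p = 0.0403). Ifi27, a small hydrophobic membrane protein, had the lowest value, at 76.9 and 107 CPM in Ctrl and 82.9 and 66.6 in DPD, a log2 fold change of -0.30 ± 0.23 (SE), and Rtp4 was the other member below 0.

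Other members with non-overlapping groups had wider spreads. Cmpk2, a mitochondrial nucleotide kinase whose gene adjoins Rsad2, had 22.8 and 11.4 CPM in Ctrl and 28.8 and 27.0 in DPD, a log2 fold change of 0.70 ± 0.47 (SE). Samd9l, a restriction factor of poxviruses, had 37.2 and 27.8 CPM in Ctrl and 38.0 and 56.2 in DPD (0.54 ± 0.38 SE on the log2 scale). In both genes 1 control library lay close to the DPD values, and Samd9l in DPD 1 was almost at the level of Ctrl 1. Dtx3l, a ubiquitin ligase that pairs with PARP9, had 49.98 and 35.1 CPM in Ctrl and 51.0 and 67.6 in DPD, likewise barely apart. Irf7 had 38.1 and 31.3 CPM in Ctrl and 45.6 and 39.2 in DPD. Xaf1 was tighter, with 36.9 and 36.0 CPM in Ctrl and 48.2 and 43.4 in DPD, a log2 fold change of 0.33 ± 0.16 (SE). Usp18 and Mx2 turned sign when 1 library was left out, to -0.0089 without DPD 1 for Usp18 and to -0.11 without DPD 2 for Mx2. Ifi35 turned to -0.16 without DPD 1, and Rtp4 to 0.24 without DPD 2. Ifit3b had 9.07 and 5.25 CPM in Ctrl and 11.3 and 10.6 in DPD, and Mx1 had 7.555 and 3.92 in Ctrl and 7.72 and 9.98 in DPD. Parp9 had 40.0 and 35.5 CPM in Ctrl and 47.8 and 50.8 in DPD, and Phf11d had 10.3 and 9.54 in Ctrl and 12.9 and 12.9 in DPD. The 6 members Oas1b, Oas1g, Rtp4, Trim30a, Dhx58 and Ifi44 had log2 fold changes from -0.04 (Rtp4) to 0.54 (Ifi44).

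**Figure D2:**
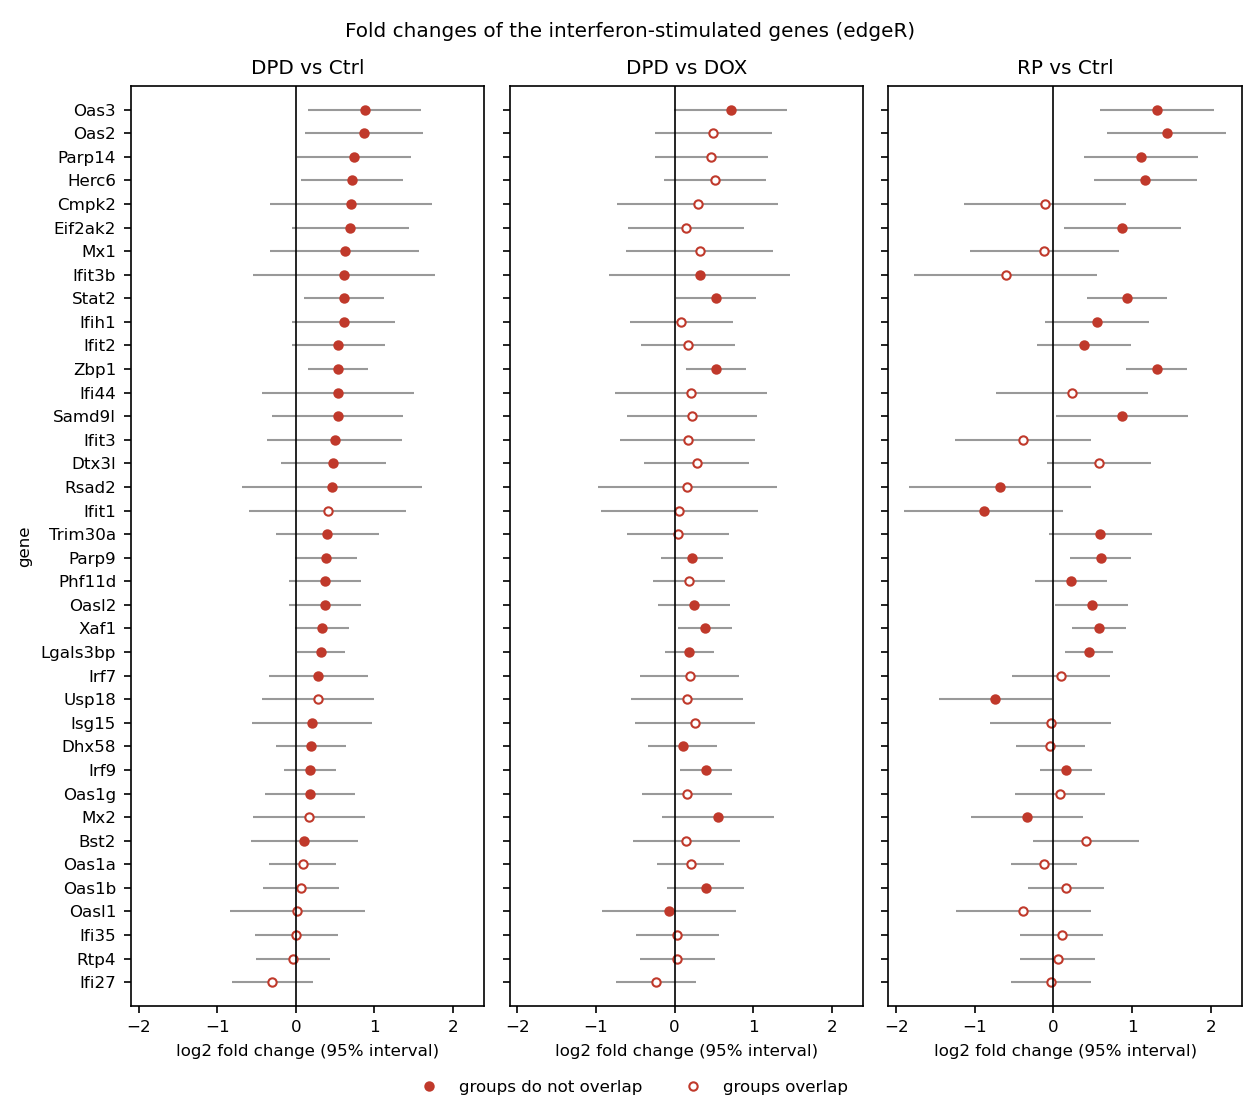
Log2 fold change of each member (rows) in 3 comparisons, DPD against Ctrl, DPD against DOX and RP against Ctrl, with the 95% interval of edgeR's fit as bars. Filled points mark members whose 2 groups do not overlap: 29 members are filled above 0 for DPD against Ctrl, and RP against Ctrl has filled points on both sides of 0 (17 above and 4 below).

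The differences moved with transcript length. Across the 38 members, Spearman's rho between exon length and the log2 fold change in DPD against Ctrl was 0.66, and over all genes with a length it was 0.34. These are descriptions, since the genes share the same 4 libraries. Within DPD alone, library 2 minus library 1 ran from -0.62 (Rtp4) to 0.63 (Oas3) on the log2 scale, with rho of 0.65 with length. After the trend with length over all genes was removed, 37 members were above 0 and the median was 0.43. The T and NK cell markers were above 0 in the same comparison in 13 of 13 cases (median log2 fold change 0.35), and all 5 red blood cell markers were below 0 (median -1.65). Skin keratinocyte markers were above 0 in 8 of 10 cases (0.75), epithelial tumour markers in 0 of 4 (-0.54) and skeletal muscle markers in 6 of 19 (-0.44). The part of these markers in the members' values was not tested. Summed plasmacytoid dendritic cell markers ranged from 109 to 170 CPM over all libraries. Most of that sum came from Tcf4 (2297 to 4787 counts) and Runx2 (1742 to 4128). The defining markers Siglech and Ccr9 had 0 to 23 and 0 to 28 counts. Of 9 such markers tested, 7 were above 0 in DPD against Ctrl (median log2 fold change 0.22) and 7 in RP against Ctrl (0.71).

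Doxorubicin at the same mass dose was the matched comparison for the prodrug. In DPD against DOX, 36 of 38 members had a log2 fold change above 0 (47.6% of all genes), with a median of 0.21 against -0.018 over all genes. Only 12 members were higher without overlap (13.4% of all genes) and 1, Oasl1, was lower (10.4%). edgeR called 0 members and 0 genes (0%), limma-voom and DESeq2 called 0 members, and the edgeR adjusted p-values lay between 0.979 and 0.993. At an unadjusted p under 0.05, 4 members were higher (3.01% of all genes) and 0 lower (1.28%). DPD against DOX and DPD against Ctrl share the DPD libraries. Cell markers differed between DPD and DOX too. T and NK cell markers were above 0 in 13 of 13 cases (median log2 fold change 0.71) and macrophage and monocyte markers in 12 of 13 (0.30). Fibroblast markers were above 0 in 3 of 7 cases (-0.36) and red blood cell markers in 0 of 5 (-2.17). The part of these markers was not tested.

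The 4 were Zbp1, Stat2, Irf9 and Xaf1. Zbp1 had 31.8 and 27.7 CPM in DOX and 39.8 and 46.2 in DPD, a log2 fold change of 0.53 ± 0.17 (SE; edgeR adjusted p = 0.979). Stat2 had 49.1 and 61.6 CPM in DOX and 65.1 and 94.9 in DPD, a log2 fold change of 0.53 ± 0.23 (SE). Irf9 had 47.8 and 44.4 CPM in DOX and 62.3 and 59.2 in DPD, a log2 fold change of 0.40 ± 0.15 (SE). In all 3 the groups were apart, and Zbp1 and Irf9 varied little between the DOX libraries. Xaf1, an antagonist of the apoptosis inhibitor XIAP, had 32.5 and 37.6 CPM in DOX and 48.2 and 43.4 in DPD, a log2 fold change of 0.39 ± 0.16 (SE).

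The other members overlapped between DPD and DOX, apart from those counted above, and the DOX libraries differed widely from each other. Samd9l had 22.8 and 58.0 CPM in DOX, on either side of 38.0 and 56.2 in DPD. Isg15 had 29.1 and 13.3 CPM in DOX, the reverse order. Over the members, DOX 2 minus DOX 1 ran from -1.13 (Isg15) to 1.35 (Samd9l) on the log2 scale, and 26 members were higher in DOX 2. The median of DPD against DOX was 0.087 without DOX 1, with 25 members above 0, and 0.54 without DOX 2, with 30 above 0. In DOX against Ctrl, 28 members were above 0 (51.4% of all genes) with a median of 0.15, 1 was higher without overlap (8.29%) and 3 were lower (9.43%), namely Oas1a, Irf9 and Mx2. That median turned to -0.075 without DOX 2. edgeR called 0 members and 0 genes there (0%), limma-voom and DESeq2 called 0 members, and 0 members were higher (0.86% of all genes) or lower (1.22%) at an unadjusted p under 0.05.

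**Figure D3:**
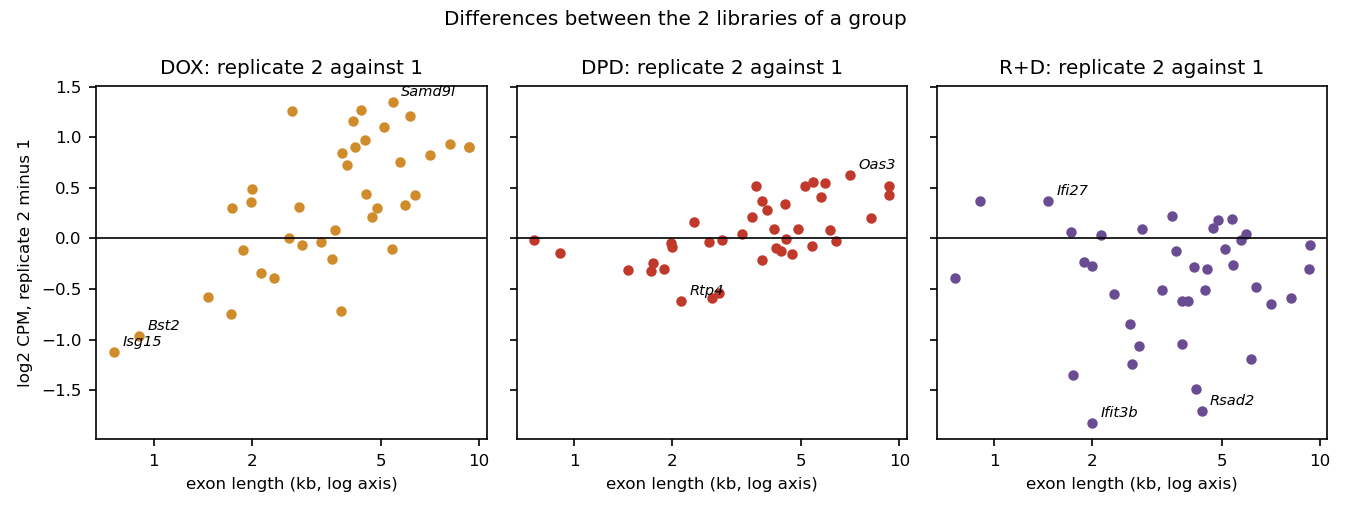
Difference of library 2 from library 1 in log2 CPM (vertical axis) against exon length in kb (log axis) for the 38 members, in panels for DOX, DPD and R+D. In DOX and DPD the short members lie low and the long ones high (rho 0.63 and 0.65), and in R+D there is no such slope (rho -0.02) but most members lie below 0.

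With the conjugate alone, members lay on both sides of the control. In RP against Ctrl, 25 members were above 0 and 13 below (53.9% of all genes above), with a median log2 fold change of 0.19 against 0.058 over all genes. Without overlap, 17 members were higher (32.3% of all genes) and 4 were lower (27.1%). edgeR called 3 of the 19525 genes (0.0154%) and 0 members. limma-voom called 16 genes, of which 1 was a member, and DESeq2 called 1124 of 31014 genes fitted, of which 9 were members. At an unadjusted p under 0.05, 12 members were higher (12% of all genes) and 1 lower (9.38%). Spearman's rho of the log2 fold change with exon length was 0.63 over the members and 0.29 over all genes, and with the trend of all genes removed 29 members were above 0 with a median of 0.28. Because RP and DPD were set against the same 2 controls, their values are given side by side and not correlated.

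Oas2, Oas3, Zbp1, Herc6, Parp14 and Stat2 had the largest differences in RP. Zbp1 had 76.4 and 71.0 CPM in RP against 30.8 and 28.5 in Ctrl, a log2 fold change of 1.32 ± 0.18 (SE; edgeR adjusted p = 0.0565). It was the member called by limma-voom (adjusted p = 0.0336) and passed in DESeq2 (adjusted p = 1.39e-08). Oas2 had 35.4 and 35.7 CPM in RP, a log2 fold change of 1.44 ± 0.34 (SE; edgeR adjusted p = 0.127), and Oas3 had 53.5 and 49.4 CPM, a log2 fold change of 1.32 ± 0.33 (SE; edgeR adjusted p = 0.128). For both genes the RP libraries lay above every other library of the study. Herc6 had 31.0 and 34.6 CPM (log2 fold change 1.17 ± 0.30 SE; edgeR adjusted p = 0.13). Parp14 had 84.6 and 101 CPM (1.11 ± 0.33 SE; edgeR adjusted p = 0.154), and Stat2 had 88.8 and 112 CPM (0.94 ± 0.23 SE; edgeR adjusted p = 0.128). Markers of several other cells were above 0 in RP against Ctrl as well: T and NK cell markers in 13 of 13 cases (median log2 fold change 1.34), neutrophil markers in 6 of 6 (1.94), endothelial markers in 6 of 6 (0.94) and skeletal muscle markers in 18 of 19 (2.60). Summed B and plasma cell markers were 24.4 and 15.2 CPM in RP and 3.14 and 2.30 in Ctrl. Skin keratinocyte markers were above 0 in 9 of 10 cases (median 2.41) and red blood cell markers in 0 of 5 (median -1.79). The part of these markers was not tested. Besides these 6, DESeq2 also called Xaf1, Parp9 and Lgals3bp.

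Ifit1, Ifit3, Ifit3b, Rsad2 and Usp18 lay below 0 in the same comparison, while Ifit2 lay above it. Ifit2 had 26.9 and 33.3 CPM in RP against 25.0 and 21.1 in Ctrl, without overlap, a log2 fold change of 0.39 ± 0.27 (SE; edgeR adjusted p = 0.395). Ifit1 had 13.9 and 13.3 CPM in RP against 30.1 and 20.1 in Ctrl, a log2 fold change of -0.88 ± 0.46 (SE; edgeR adjusted p = 0.278). Usp18 had 8.42 and 7.86 CPM against 15.6 and 11.6, a log2 fold change of -0.74 ± 0.33 (SE; unadjusted p = 0.0445, edgeR adjusted p = 0.225). Rsad2 had 8.27 and 8.57 CPM against 17.5 and 9.42, a log2 fold change of -0.68 ± 0.52 (SE). These 3 and Mx2 were the 4 members lower without overlap, and none of them passed edgeR's test. Ifit3 had 23.6 and 17.5 CPM and overlapped with Ctrl. The IFIT median was -0.50, with 1 of 4 above 0 (Ifit2), while the OAS median was 0.16 and the PARP and DTX3L median 0.60. The 2 RP libraries carried 320 and 121 CPM of skeletal muscle markers. With a muscle score as a covariate, the log2 fold change was 0.38 for Rsad2, 0.24 for Ifit3, -0.14 for Ifit1 and -0.13 for Usp18, against 1.62 for Oas3, 1.67 for Oas2 and 1.07 for Zbp1 (edgeR adjusted p = 0.504 for Zbp1), and the member median was 0.36. So Rsad2 and Ifit3 turned sign with the score, while Oas2, Oas3 and Zbp1 did not. With the groups in the fit, the slope on the score rests on differences within groups. The widest gap in summed muscle markers was in R+D, with 41.0 CPM in R+D 1 and 418 in R+D 2. Rsad2 and Ifit3 were also lower in R+D 2 than in R+D 1, so muscle and that library cannot be told apart here. Leaving out single libraries, the edgeR adjusted p of Zbp1 was 0.782 without Ctrl 2, 0.133 without Ctrl 1 and 0.227 without RP 1, and it was 0.0251 without DOX 1 and 0.0252 without DOX 2, which only changed the shared spread. The member median was 0.41 without Ctrl 1 and 0.096 without RP 1.

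**Figure D4:**
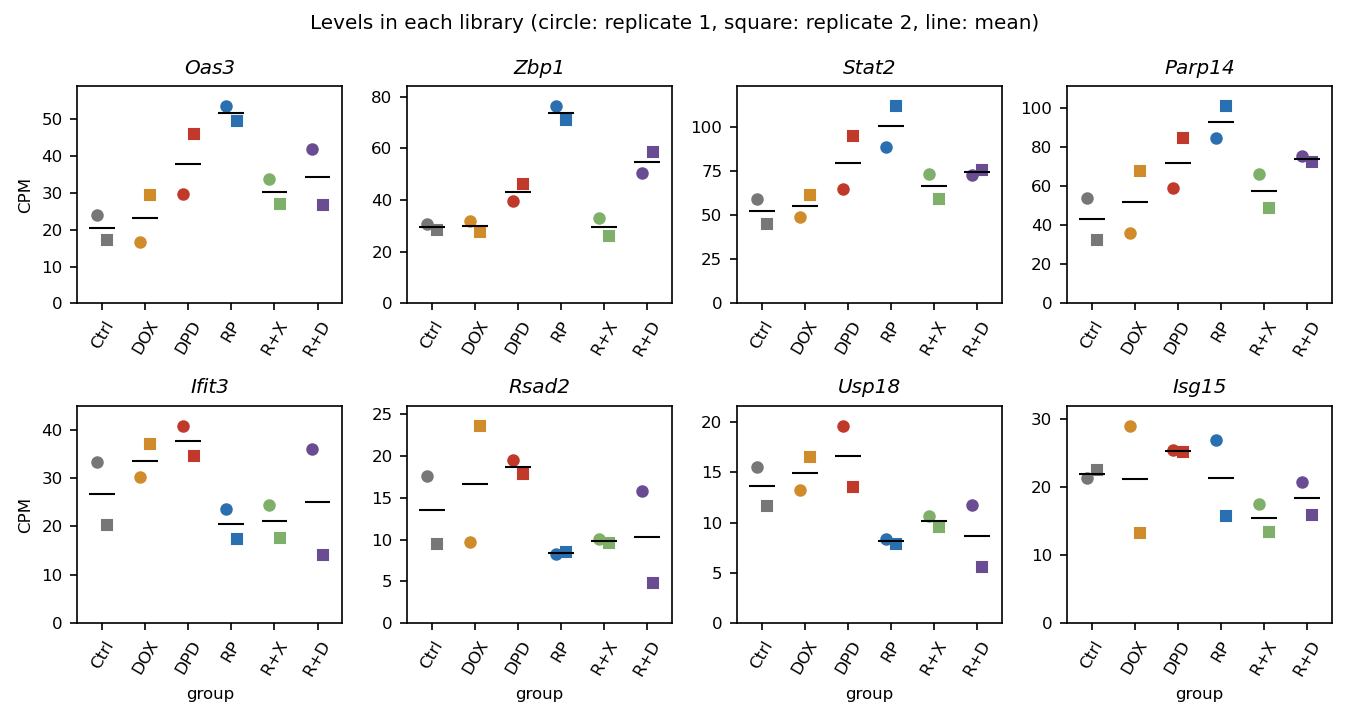
CPM of 8 members in each library by group, with a circle for library 1, a square for library 2 and a line for the mean of the 2. Oas3, Zbp1, Stat2 and Parp14 have their highest group mean in RP, whereas Rsad2 and Usp18 are below both Ctrl libraries there, and R+D 2 is the lowest library for Ifit3, Rsad2 and Usp18.

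When DPD was combined with the conjugate, most members lay below their level in DPD alone. In R+D against DPD, 7 members were above 0 and 31 below (51.4% of all genes above), with a median log2 fold change of -0.28 against 0.0075 over all genes. In 16 members both R+D libraries were below both DPD libraries (11.8% of all genes), and 1 member, Zbp1, was higher without overlap (14.5%). edgeR called 0 members and 0 genes (0%), limma-voom and DESeq2 called 0 members, and 5 members were lower at an unadjusted p under 0.05 (0.789% of all genes) and 0 higher (1.52%). Their edgeR adjusted p was 1. The median was -0.50 without R+D 1 and -0.16 without R+D 2. Cell markers moved in both directions here. Macrophage and monocyte markers were above 0 in 1 of 13 cases (median log2 fold change -0.20) and red blood cell markers in 0 of 5 (-1.47). T and NK cell markers were above 0 in 12 of 13 cases (0.41) and skeletal muscle markers in 19 of 19 (3.36). The part of these markers was not tested, and the injection site of the drug differed as well.

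The 5 were Usp18, Lgals3bp, Oas1a, Phf11d and Irf7. Usp18 had 11.8 and 5.62 CPM in R+D against 19.7 and 13.5 in DPD, a log2 fold change of -0.93 ± 0.33 (SE). Lgals3bp had 73.6 and 78.5 CPM against 101 and 99.6, a log2 fold change of -0.40 ± 0.14 (SE). Irf7, the factor that amplifies interferon alpha, had 32.6 and 21.2 CPM against 45.6 and 39.2, a log2 fold change of -0.66 ± 0.28 (SE). The groups were apart in all 3, with close libraries for Lgals3bp only. Oas1a was at -0.52 ± 0.19 (SE) and Phf11d, a transcription regulator, at -0.54 ± 0.21 (SE) on the log2 scale. Usp18 was at -1.58 without R+D 1 and -0.50 without R+D 2, and at -0.47 with the muscle score as a covariate. R+D 2, which held 418 CPM of skeletal muscle markers, was the lowest of all 12 libraries for 13 members. Ifit3 had 36.1 CPM in R+D 1 and 14.1 in R+D 2, Rsad2 had 15.8 and 4.81, and Cmpk2 had 24.8 and 8.80. For these genes the 2 libraries of R+D differed by more than the R+D and DPD groups did. Zbp1 went the other way, at 50.3 and 58.7 CPM in R+D against 39.8 and 46.2 in DPD.

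Against the controls, R+D had 18 members above 0 (53.3% of all genes) with a median of -0.011, 12 higher without overlap (30.8%) and 6 lower (27.4%). The median was 0.20 with the muscle score as a covariate, 0.28 without Ctrl 1 and 0.090 with the length trend removed, which left 23 members above 0. Zbp1 had a log2 fold change of 0.88 ± 0.17 (SE; edgeR adjusted p = 0.314). For Oas2, at 30.9 and 21.7 CPM in R+D, it was 1.01 ± 0.34 (SE). edgeR called 0 members and 0 genes there (0%) and limma-voom 0 members. DESeq2 called 224 of 31014 genes fitted and, of the members, Zbp1 (adjusted p = 0.00378). At an unadjusted p under 0.05 with edgeR, 6 members were higher (8.69% of all genes) and 1 lower (6.66%). R+X had 18 members above 0 against Ctrl (50.6% of all genes), a median of -0.010, 8 higher without overlap (28.5%) and 10 lower (27.5%). The log2 fold changes in R+X had rho of 0.78 with exon length over the members and 0.41 over all genes. There edgeR called 0 members and 0 genes (0%), limma-voom and DESeq2 called 0 members, and at an unadjusted p under 0.05 there were 0 higher (3.53% of all genes) and 0 lower (2.47%). Between the combinations, R+D against R+X had a median of 0.067 with 22 members above 0 (50.7%), 8 higher without overlap (22.5%) and 1 lower (23%). edgeR called 0 members and 0 genes (0%) and limma-voom 0 members, while DESeq2 called 41 of 31014 genes fitted, of which 1 was a member. At an unadjusted p under 0.05 with edgeR, 2 members were higher (3.75% of all genes) and 0 lower (1.52%). The member called by DESeq2 was Zbp1, which had 33.2 and 26.0 CPM in R+X against 50.3 and 58.7 in R+D, a log2 fold change of 0.88 ± 0.17 (SE), with an adjusted p of 0.82 in edgeR and 0.00654 in DESeq2.

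Whether R+D differed from the sum of its parts was tested as the difference of R+D from RP minus that of DPD from Ctrl. It was below 0 for 36 of 38 members, with a median of -0.57 on the log2 scale, and for 48.7% of genes the same value was above 0. Oas3 had -1.46 ± 0.46, Oas2 -1.30, Parp14 -1.07 and Stat2 -1.04 on the log2 scale (edgeR adjusted p = 0.84). edgeR called 0 members and 0 genes (0%) and limma-voom 0 members. DESeq2 called 12 of 31014 genes fitted, of which 1 was a member, Lgals3bp, at -0.855 (adjusted p = 0.0493). At an unadjusted p under 0.05 with edgeR, 11 members were lower (3.45% of all genes) and 0 higher (1.01%). Over the members this value had rho of -0.69 with exon length (-0.29 over all genes), and with the trend removed the median was -0.64. The route of the drug differed in R+D, so this value includes that difference. The difference between the drugs with the conjugate minus that without it had a median of -0.18, with 31 members below 0 (53.9% of genes above 0), and 0 members were called by edgeR (adjusted p = 1), limma-voom or DESeq2. At an unadjusted p under 0.05, 0 members were higher (0.978% of all genes) and 0 lower (1.14%). Without R+D 2 that median was 0.029.

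The members did not vary as 1 block. Over the 12 libraries, Pearson's r of log2 CPM was 0.99 for Oas2 and Herc6, 0.97 for Oas2 and Oas3, 0.98 for Ifit3 and Ifit3b, and 0.94 for Rsad2 and Ifit1, and it was -0.57 for Usp18 and Zbp1. The points share libraries, length trends and muscle content, so these are descriptions with no test. Oasl2 was most like the mean of the other members (r = 0.94) and Ifi27 least (r = -0.40). Among 11586 other genes with a mean of at least 5 CPM, the genes closest to the mean of the members were Parp12 (r = 0.92), Eif4e3 (0.89), Adgre5 (0.87), Sla (0.85) and Trim34a (0.85).

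Interferon ligands themselves were barely detected. Ifnb1 (interferon beta) had 31 counts over all 12 libraries and Ifnz (interferon zeta) 97, and each interferon alpha gene had 0 to 8. Ifng had 611 counts in all, with 31 and 39 in Ctrl, 49 and 19 in DOX and 97 and 88 in RP. In DPD it had 15 and 62, on either side of the Ctrl counts. The combinations had 39 and 30 (R+X) and 50 and 92 (R+D). Of 15 receptor and kinase genes, 14 could be tested and 9 were above 0 in DPD against Ctrl, where 51.3% of all genes were. Their log2 fold changes included -0.05 for Ifnar1, -0.16 for Ifnar2, 0.25 for Jak1 and 0.27 for Tyk2. The sensors and adaptors had 9 of 14 genes above 0 and 0 at an unadjusted p under 0.05 with edgeR, and the negative regulators had 6 of 8 above 0, with Socs1 at -0.11.

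Other interferon-stimulated genes gave a background for the members. Of 77 such genes tested, 61 were above 0 in DPD against Ctrl (51.3% of all genes), with a median log2 fold change of 0.29. At an unadjusted p under 0.05 with edgeR, 8 were higher (2.61% of all genes). Of 24 genes known to respond mainly to interferon gamma, 19 were above 0 in the same comparison, with a median of 0.70. Of these 24, 15 were higher at an unadjusted p under 0.05, against the same 2.61% of all genes. Gbp2, a GTPase that attacks vacuoles of pathogens, had a log2 fold change of 0.69, Gbp4 of 1.10 and Ido1, which degrades tryptophan, of 1.34. In DPD against DOX the median of these 24 genes was 0.78 and all 24 were above 0 (47.6% of all genes). In RP against Ctrl it was 1.46, and Serpina3g, a serine protease inhibitor, passed edgeR's test at 1.44 ± 0.16 (SE; adjusted p = 0.0294). In each of these 3 comparisons the median of the interferon gamma list was larger than that of the 38 antiviral genes, which was 0.39, 0.21 and 0.19, a difference that was not tested.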

How the data were processed

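RNA of 12 tumours' libraries (6 groups of 2) was sequenced after total RNA extraction and library preparation with a NEBNext Ultra kit, per the labels' protocols. The values used are raw counts per gene as deposited by the authors, and the 12 per-library files equal the columns of the table. HISAT2 2.1.0, StringTie 1.3.5, DESeq2 and the build GRCm38 are named in the submitters' processing notes, and no source used here gives the role of each tool, the annotation or the use of strand. The members and gene lists were chosen with earlier results of these data known. Rows were matched by gene symbol. edgeR 4.0.16 (R 4.3.3) with TMM scaling and filterByExpr kept 19525 genes, and the quasi-likelihood test was fitted to all 6 groups (6 residual degrees of freedom, biological coefficient of variation 0.257) with Benjamini-Hochberg adjustment over all genes and a threshold of 0.05 in 10 comparisons. Log2 CPM used a prior count of 2. Exon lengths came from GENCODE M21. Totals of 46547114 to 56462259 counts leave the spread of 2 libraries, not counting error, as the limit. On simulated counts for DPD against Ctrl, over 19525 genes, 2% of 1.5-fold, 36.4% of 2-fold and 86.8% of 4-fold changes were called. Alternatives were no filter, DESeq2 1.42.0, limma-voom (limma 3.58.1), the compared groups only, a skeletal muscle score as covariate and single libraries left out. Chosen after seeing the data were leaving out both DOX libraries or a library of another group, and removal of the trend with length. Members named were the 20 with the highest mean CPM within their role, and the others named were chosen after their values were seen. Values of 1 gene of the interferon pathway lists are not reported here, and the counts over its list include it.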

Additional observations from a re-analysis of the deposited data

How the results depend on the processing

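The limits are the 2 libraries a group and an injection route that changes with the combination. No paired analysis was possible because the labels number no replicates. With single libraries left out, the genes called ranged from 0 to 1 (each of DPD against Ctrl, DPD against DOX, R+D against DPD, DOX against Ctrl, R+X against Ctrl, R+D against R+X and both interaction contrasts), 0 to 5 (R+D against Ctrl) and 0 to 48 (RP against Ctrl, members called 0 to 1). The member median ranged from 0.087 to 0.54 (DPD against DOX), -0.50 to -0.16 (R+D against DPD), 0.096 to 0.41 (RP against Ctrl), -0.075 to 0.31 (DOX against Ctrl), -0.14 to 0.28 (R+D against Ctrl), -0.16 to 0.19 (R+D against R+X), -0.87 to -0.39 (R+D minus RP minus DPD plus Ctrl) and -0.47 to 0.029 (drug difference with minus without conjugate).

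Ranges of log2 fold changes that turned sign were, in DPD against Ctrl, -0.16 to 0.16 for Ifi35, -0.11 to 0.41 for Mx2, -0.067 to 0.23 for Oas1a, -0.12 to 0.30 for Oas1b, -0.38 to 0.24 for Rtp4, -0.14 to 0.20 for Oasl1 and -0.0089 to 0.53 for Usp18. In DPD against DOX, leaving out 1 library gave -0.27 to 0.94 for Ifi44, -0.022 to 0.38 for Oas1g, -0.31 to 0.31 for Rtp4, -0.43 to 0.73 for Trim30a, -0.25 to 0.72 for Bst2, -0.089 to 0.82 for Cmpk2, -0.045 to 0.71 for Dtx3l, -0.30 to 0.80 for Eif2ak2, -0.50 to 0.080 for Ifi27, -0.29 to 0.46 for Ifi35, -0.30 to 0.62 for Ifih1, -0.44 to 0.82 for Ifit1, -0.14 to 0.58 for Ifit2, -0.13 to 0.60 for Irf7, -0.20 to 0.93 for Isg15, -0.042 to 0.80 for Mx1, -0.022 to 0.42 for Phf11d, -0.34 to 0.93 for Rsad2, -0.30 to 1.05 for Samd9l and -0.14 to 0.39 for Usp18. In R+D against DPD it gave -0.25 to 0.036 for Oas1b, -0.59 to 0.054 for Rtp4, -0.11 to 0.18 for Trim30a, -0.25 to 0.10 for Bst2, -0.36 to 0.033 for Dtx3l, -0.33 to 0.18 for Eif2ak2, -0.071 to 0.34 for Herc6, -0.16 to 0.22 for Ifi27, -0.19 to 0.16 for Ifi35, -0.16 to 0.37 for Oas2, -0.52 to 0.19 for Oas3, -0.47 to 0.016 for Oasl2, -0.20 to 0.30 for Parp14, -0.28 to 0.27 for Samd9l, -0.35 to 0.18 for Stat2 and -0.069 to 0.10 for Xaf1. In RP against Ctrl it gave -0.16 to 0.025 for Dhx58, -0.044 to 0.59 for Ifi44, -0.037 to 0.38 for Oas1b, -0.29 to 0.34 for Oas1g, -0.041 to 0.096 for Rtp4, -0.049 to 0.73 for Bst2, -0.52 to 0.48 for Cmpk2, -0.25 to 0.23 for Ifi27, -0.10 to 0.25 for Ifi35, -0.70 to 0.023 for Ifit3, -0.24 to 0.33 for Irf7, -0.51 to 0.28 for Isg15, -0.51 to 0.44 for Mx1, -0.42 to 0.090 for Oas1a and -1.15 to 0.086 for Oasl1. Of the 38 members, signs turned without DOX 1 for 13, without DOX 2 for 6 and without either DPD library for 4 in DPD against DOX. They turned without DPD 1, DPD 2, R+D 1 and R+D 2 for 6, 7, 5 and 6 in R+D against DPD, and without Ctrl 1, Ctrl 2, RP 1 and RP 2 for 4, 5, 5 and 7 in RP against Ctrl.

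DESeq2 called 4 genes in DPD against Ctrl, 8 in DPD against DOX, 6 in R+D against DPD, 1124 in RP against Ctrl (9 members), 1 in DOX against Ctrl, 3 in R+X against Ctrl, 224 in R+D against Ctrl (1 member), 41 in R+D against R+X (1 member), 12 in the non-additivity contrast (1 member) and 3 in the drug difference contrast. Without the low-count filter, 1 gene was called in each of DPD, DOX and R+D against Ctrl, and 14 in RP against Ctrl (1 member). With the compared groups only, 1 gene was called in DPD against DOX, 3 in R+D against DPD, 505 in RP against Ctrl (6 members), 2 in DOX, 6 in R+X and 8 in R+D against Ctrl. limma-voom called 16 genes in RP against Ctrl (1 member). Without both DOX libraries, 36 genes were called in RP against Ctrl (1 member) and 1 in R+D against DPD. With the skeletal muscle score as covariate, 0 genes were called in RP against Ctrl with edgeR, and the median of R+D against Ctrl was 0.20. Signs turned in DPD against DOX for Ifi35 (-0.0045), in R+D against DPD for Eif2ak2 (0.10), Ifi27 (-0.19), Ifih1 (0.14), Ifit2 (0.015), Oas1b (0.0083), Oas3 (0.090), Samd9l (0.26) and Xaf1 (-0.0038), and in RP against Ctrl for Bst2 (-0.10), Cmpk2 (0.66), Dhx58 (0.15), Ifi35 (-0.095), Ifit3 (0.24), Ifit3b (0.20), Mx1 (0.32), Rsad2 (0.38) and Rtp4 (-0.037). The cause was not tested.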
